A study of Mus musculus with 34 samples.

Results

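Feeder-type cytokines, chemokines and Ptgs2 are 10 genes that cultured fibroblasts are known to switch on: the cytokines Csf1, Lif and Il6, the chemokines Ccl2, Ccl7, Cxcl1, Cxcl5 and Cxcl12, the enzyme gene Ptgs2 and the receptor gene Il1rl1. They were followed in mouse embryonic stem (ES) cells grown on mouse embryonic fibroblasts, the feeder layer. A gene's values came from every probe set, the group of short probes that reports 1 transcript, that carried its symbol alone. Of the 10 genes, 9 had such a probe set, among 18193 genes measured this way, and Il1rl1 was not analysed here. The 9 genes had 18 probe sets. The members were selected on their log2 levels in these same RNAs, over the 6 groups of line and state, so their own levels and differences are given as a description with standard errors and no p-value.

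These genes encode short-range signals. Csf1 sustains macrophages, Lif keeps mouse ES cells undifferentiated through the receptor subunit gp130 and the transcription factor STAT3, and Il6 also signals through gp130. Ccl2 and Ccl7 attract monocytes, Cxcl1 and Cxcl5 attract neutrophils, Cxcl12 guides stem cells and lymphocytes, and Ptgs2 (cyclooxygenase-2) makes the precursor of the prostaglandins. In fibroblasts, several of them are induced by serum, by interleukin-1 or by the transcription factor NF-kappaB.

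Both ES cell lines, D4 and C2, were C57BL/6 and came from blastocysts, and each was sampled in 3 states. Late-passage cells, detached or attached, are labelled as giving highly chimeric mice with germline transmission, and their medium was Thromb-XTX-WES. Early-passage cells are labelled with low chimerism without germline transmission, and their medium was DMEM with 15% fetal bovine serum, so passage, medium and chimerism cannot be told apart. All groups received LIF in the medium, besides glutamine, pyruvate, beta-mercaptoethanol and non-essential amino acids, at 5% CO2 and 37 C. Late detached cells gave 2 RNAs in D4 and 3 in C2, late attached cells 3 in each line, and early cells 3 in each line, 17 RNAs in all. Each RNA was hybridised to 1 MOE430A and 1 MOE430B array. The labels name the feeder fibroblasts as the contaminating cell type and put purity at about 90% (above 90% for early D4). Light trypsin was meant to leave feeders on the dish, followed by 1 hour on a fresh plate. What attached and detached refer to is not stated in the labels, nor is whether the RNAs of a group were separate cultures. P-values of other genes therefore rest on the spread from RNA to RNA alone, and that spread may be technical.

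Levels are log2(signal + 16) of the deposited intensities, and levels of different probe sets are not compared. The median signal of an array was 529 to 817 on MOE430A (9.09 to 9.70 on the log2 scale) and 763 to 989 on MOE430B (9.61 to 9.97). The 12 ES cell markers exceeded the array median on all 17 arrays, in keeping with the labelled cell type. C2 late attached replicate 1 stood apart, with a 5th percentile of 109 on MOE430A and 177 on MOE430B, against at most 37.6 and 79.8 on the other arrays, so its dim probe sets read high. D4 late attached replicate 3 had an Actb 3' to 5' ratio of 1.84 on MOE430A, against at most 1.21 elsewhere, a sign of shorter RNA. Where these RNAs weigh on a value, it is also given without both of them.

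Promoter sequence was available for 7 of the 10 genes, including Il1rl1, as the window of 250 bases before to 50 bases after the start site (RefSeq, GRCm38.p6). The windows below belong to Csf1 and Ptgs2, the members with the largest differences between states, and to Cxcl1 and Lif, whose brightest tested probe sets differed little. Capitals mark matches to short motifs searched on both strands: the NF-kappaB consensus, AP-1 (TGANTCA), the cyclic AMP element (TGACGTCA), C/EBP (TTGCNNAA) and STAT (TTCNNNGAA), and TATAAA on the gene's own strand. The Csf1 window is chr3:107760420-107760719 on the minus strand, that of Ptgs2 chr1:150099781-150100080 on the plus strand, that of Cxcl1 chr5:90890995-90891294 on the plus strand and that of Lif chr11:4257318-4257617 on the plus strand.

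Csf1: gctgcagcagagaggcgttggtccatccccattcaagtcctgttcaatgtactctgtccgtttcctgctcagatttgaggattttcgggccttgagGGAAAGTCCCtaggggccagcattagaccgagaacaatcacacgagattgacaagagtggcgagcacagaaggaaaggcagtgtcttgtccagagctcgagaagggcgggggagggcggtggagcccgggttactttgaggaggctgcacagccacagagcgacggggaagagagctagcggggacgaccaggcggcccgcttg
Ptgs2: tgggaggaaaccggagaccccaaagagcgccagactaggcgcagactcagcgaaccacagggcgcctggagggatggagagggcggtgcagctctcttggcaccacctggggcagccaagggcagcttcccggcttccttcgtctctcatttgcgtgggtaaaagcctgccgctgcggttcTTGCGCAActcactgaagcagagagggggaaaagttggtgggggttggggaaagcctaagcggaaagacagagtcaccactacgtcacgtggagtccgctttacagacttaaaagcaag
Cxcl1: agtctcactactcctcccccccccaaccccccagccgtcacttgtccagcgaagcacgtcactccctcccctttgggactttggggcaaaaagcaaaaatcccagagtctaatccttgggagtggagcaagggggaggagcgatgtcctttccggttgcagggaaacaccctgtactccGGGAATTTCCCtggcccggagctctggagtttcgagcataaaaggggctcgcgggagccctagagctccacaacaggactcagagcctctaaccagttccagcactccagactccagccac
Lif: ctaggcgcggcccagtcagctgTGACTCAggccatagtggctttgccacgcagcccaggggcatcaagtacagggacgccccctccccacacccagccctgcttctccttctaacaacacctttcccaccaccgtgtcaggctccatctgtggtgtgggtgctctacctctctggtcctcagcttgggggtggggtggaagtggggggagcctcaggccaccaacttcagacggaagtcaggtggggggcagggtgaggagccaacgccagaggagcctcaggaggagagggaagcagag

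Csf1 held 1 NF-kappaB match, 154 to 145 bases before its start. In Cxcl1 the NF-kappaB consensus matched on both strands over the same stretch, 71 to 61 bases before the start. The Il6 window, not printed, held 1 as well, 44 to 35 bases before the start, and 4.51% of the 32851 promoters in the table held at least 1. Ptgs2 had a C/EBP match 69 to 62 bases before its start (10.8% of all promoters), and Lif an AP-1 match 228 to 222 bases before its start (7.81%). Il6 also held a C/EBP match, 128 to 121 bases before its start, and an AP-1 match, 249 to 243 bases before it. An Il1rl1 window, not printed, held a C/EBP match 34 to 27 bases before its start. The Cxcl12 window held none of these motifs. Cyclic AMP element, STAT and TATAAA matches, which 1.79%, 8.30% and 8.32% of all promoters held, were found in none of the 7 genes' windows. A match describes the letters of the window and is not a measured binding site.

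Csf1, Ptgs2 and Ccl2 were lower in detached cells than in attached cells of the same passage and medium, and Lif, Cxcl5, Cxcl12 and the brightest Cxcl1 probe set overlapped between these states. Il6 and Ccl7, dim and untested, had lower means in detached cells, with RNAs that overlapped. Of the members' 18 probe sets, 17 had a negative difference of detached minus attached, with a median of -1.17, against a median of 0.01 over all 30373 tested probe sets. For late attached minus early the median of the 18 was -0.09, with 12 below 0, against -0.01 over all tested probe sets. The 18 went both ways, from -1.03 (SE 0.56, a Ptgs2 probe set) to 1.31 (SE 0.71, a dim Cxcl1 probe set). A probe set was tested when it exceeded the array median on at least 2 arrays, which 11 of the 18 did. The medians of the 18 thus include dim probe sets, which those over all tested probe sets leave out. Among the 11 tested members' probe sets, 10 were below 0 for detached minus attached. Of these 11, 4 passed an adjusted p of 0.05 for detached minus attached, all lower (3 of Csf1 and 1 of Ccl2), where 0.198% of all tested probe sets were called lower. For late minus early, with late the mean of detached and attached, 4 were called lower (3 of Csf1 and 1 of Ptgs2), where 1.14% of all were. For attached minus early, none of the 11 was called, where 0.0922% of all were in either direction. These counts come from the contrasts that chose the genes, so they are a description and nothing is read from them. The called Csf1 probe set with the largest difference, -2.48, exceeded the array median on 4 arrays, all of early cells. It was thus tested only through the group where it is high. In bulk RNA, fewer cells of a type and less RNA per cell cannot be told apart.

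**Figure D1:**
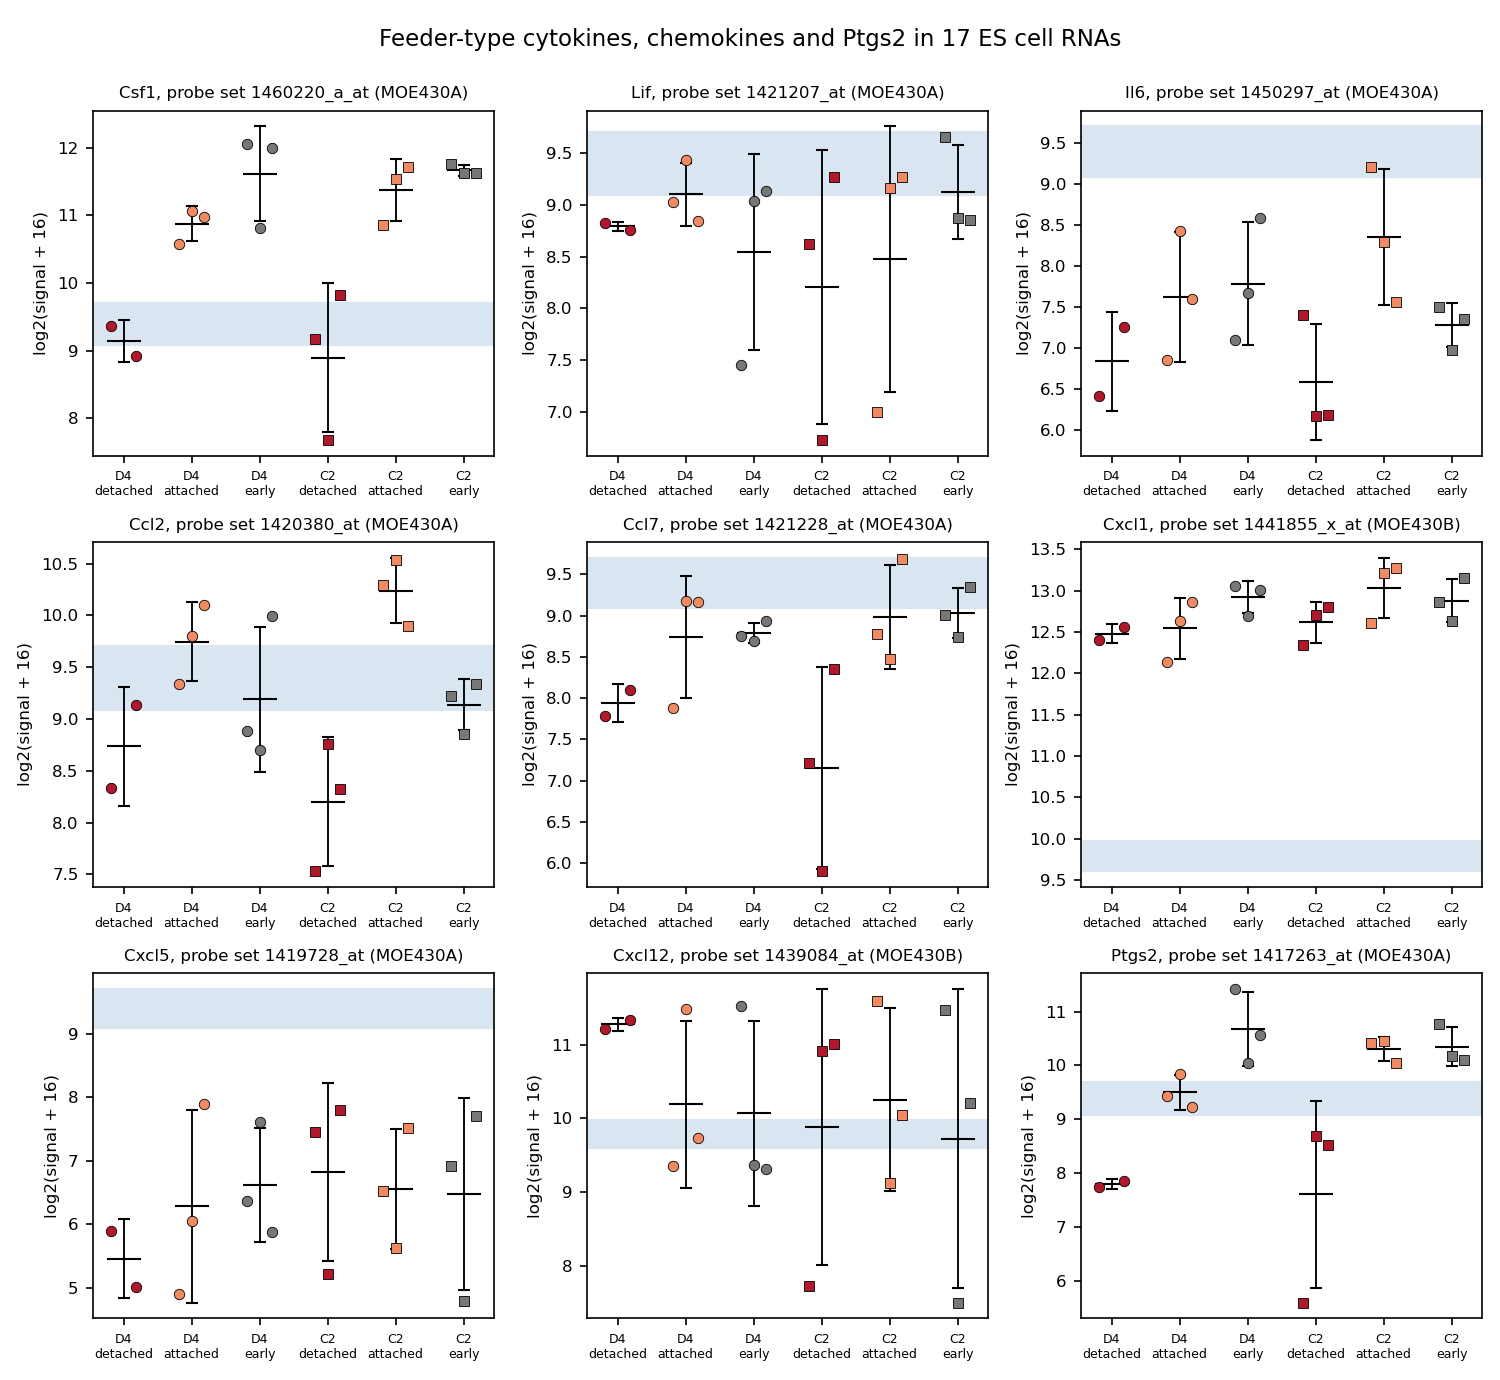
Level of 1 probe set per member in each RNA, as log2(signal + 16), by line and state (detached and attached cells are late passage). Points are RNAs (D4 circles, C2 squares), the dash and bars are the group mean and SD, and the blue band spans the medians of the 17 arrays of that type. Every detached RNA lies below every attached and early RNA for Csf1 and Ptgs2, and the groups overlap for Lif, Il6, Cxcl1, Cxcl5 and Cxcl12.

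Csf1, macrophage colony-stimulating factor, showed the difference on all 4 of its probe sets. Its brightest read 9.36 and 8.92 in D4 late detached cells, 10.58, 11.07 and 10.97 in D4 late attached cells and 12.05, 10.81 and 11.99 in D4 early cells. In C2 it read 9.17, 7.68 and 9.83 in late detached cells, 10.86, 11.54 and 11.72 in late attached cells and 11.76, 11.62 and 11.62 in early cells. All 5 detached RNAs lay below all 12 others, while attached and early RNAs overlapped. In signal units these were 189 to 893 in detached cells, 1511 to 3353 in attached cells and 1773 to 4224 in early cells. The difference was -2.11 (SE 0.34) for detached minus attached and -2.63 (SE 0.34) for detached minus early, against -0.52 (SE 0.32) for attached minus early. The last is under 2 standard errors, so on this probe set the 2 higher states were not separated beyond their spread.

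The other Csf1 probe sets gave detached minus attached differences of -2.48 (SE 0.27), -1.84 (SE 0.23) and -0.86 (SE 0.26). Their attached minus early differences, in the same order, were -0.72 (SE 0.25), -0.43 (SE 0.22) and -0.32 (SE 0.24), smaller than those of detached cells. The first of these reached its lowest level in detached D4 cells, 5.72 and 5.62, against 8.46 to 9.03 in attached and 9.16 to 9.84 in early D4 cells. On the probe set with the smallest difference, the detached range of 9.05 to 10.61 overlapped the attached range of 10.24 to 11.41. The 4 probe sets followed each other over the 17 RNAs, with Pearson r between 0.75 and 0.93. With each RNA left out in turn, detached minus attached for the brightest stayed between -2.34 and -1.80. Within D4, attached minus early was -0.75 (SE 0.45) for the brightest. For the others, in the order above, it was -0.80 (SE 0.36), -0.93 (SE 0.31) and -0.85 (SE 0.34). In C2 the same differences were -0.29 (SE 0.45), -0.63 (SE 0.36), 0.08 (SE 0.31) and 0.22 (SE 0.34). The gap between the lines was not tested.

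Lif, the gp130 cytokine that feeders supply to ES cells, did not follow Csf1 on its tested probe set. Its tested probe set read 8.82 and 8.76 in D4 late detached cells, 9.03, 9.43 and 8.84 in D4 late attached cells and 7.45, 9.04 and 9.13 in D4 early cells. In C2 it read 8.62, 6.73 and 9.27 in late detached cells, 7.00, 9.16 and 9.27 in late attached cells and 9.65, 8.87 and 8.85 in early cells. The states overlapped throughout, with a single low RNA in 3 of the 6 groups. Detached minus attached was -0.29 (SE 0.50) and attached minus early -0.04 (SE 0.47), so differences near 1 in either direction lie within about 2 standard errors. A second Lif probe set stayed below the array median on all 17 arrays and did not track the first (r = -0.05 over 17 RNAs). It stood at -1.07 (SE 0.45) for detached minus attached and 0.91 (SE 0.43) for attached minus early, with RNAs that overlapped. Without both RNAs that stand apart these were -0.86 (SE 0.48) and 0.70 (SE 0.46). The Lif probe sets thus cannot be read as 1 profile.

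Il6 was dim, below the array median on all 17 arrays, and was not tested. It read 6.41 and 7.26 in D4 late detached cells, 6.85, 8.43 and 7.59 in D4 late attached cells and 7.10, 7.67 and 8.58 in D4 early cells. The C2 values were 7.40, 6.17 and 6.18 in late detached cells, 9.21, 8.29 and 7.56 in late attached cells and 7.50, 6.98 and 7.35 in early cells. Detached cells tended to the low end, at -1.28 (SE 0.40) against attached cells, but the groups overlapped. The highest of all values came from C2 late attached replicate 1, the array whose dim probe sets read high, and without both RNAs that stand apart detached minus attached was -1.08 (SE 0.42).

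Ccl2, monocyte chemoattractant protein 1, was the member whose representative probe set had its highest group mean in late attached cells of each line. It read 8.33 and 9.14 in D4 late detached cells, 9.34, 9.80 and 10.10 in D4 late attached cells and 8.88, 8.70 and 9.99 in D4 early cells. C2 RNAs gave 7.53, 8.76 and 8.32 in late detached cells, 10.29, 10.53 and 9.90 in late attached cells and 9.22, 8.86 and 9.34 in early cells. Every detached RNA lay below every attached RNA, and 1 early RNA, D4 replicate 3, reached the attached range. Detached minus attached was -1.52 (SE 0.28), attached minus early 0.83 (SE 0.27) and detached minus early -0.69 (SE 0.28). Late minus early, which averages detached and attached, was 0.07 (SE 0.24), so the opposite deviations of the 2 late states cancelled there. With each RNA left out in turn, detached minus attached stayed between -1.73 and -1.32, and without both RNAs that stand apart it was -1.42 (SE 0.32).

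Ccl7, monocyte chemoattractant protein 3, is the gene next to Ccl2 on chromosome 11. Its probe set exceeded the array median on 1 array and was not tested. It read 7.78 and 8.10 in D4 late detached cells, 7.88, 9.18 and 9.16 in D4 late attached cells and 8.75, 8.69 and 8.93 in D4 early cells. C2 values of Ccl7 were 7.21, 5.90 and 8.35 in late detached cells, 8.78, 8.47 and 9.69 in late attached cells and 9.01, 8.74 and 9.34 in early cells. All detached RNAs lay below all early RNAs, as for Csf1. Detached minus attached was -1.31 (SE 0.39) for Ccl7, with RNAs that overlapped, and -1.26 (SE 0.46) without both RNAs that stand apart. Attached minus early was -0.05 (SE 0.37) for Ccl7, and the gap to Ccl2 was not tested.

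Among the CXC chemokines, each tested probe set differed between states by less than 2 standard errors, averaged over lines. For Cxcl12 that error was wide, 0.82 for detached minus attached, so a larger difference may go unseen. Cxcl1, a ligand of the neutrophil receptor Cxcr2, had a bright MOE430B probe set that read 12.40 and 12.56 in D4 late detached cells, 12.14 to 12.86 in D4 late attached cells and 12.70 to 13.06 in D4 early cells. In C2 it read 12.34 to 12.80 in late detached cells, 12.61 to 13.28 in late attached cells and 12.63 to 13.15 in early cells. Detached minus attached was -0.24 (SE 0.21), and all 3 states overlapped. The Cxcl1 probe set on MOE430A stayed below the array median on all 17 arrays and gave -1.26 (SE 0.76), and the second on MOE430B gave -0.69 (SE 0.57). The dim MOE430A probe set and the bright MOE430B one did not track each other (r = 0.17 over 17 RNAs), so the Cxcl1 probe sets cannot be read as 1 profile.

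Cxcl12, the ligand of Cxcr4, differed more between RNAs of a group than between groups. Its tested MOE430B probe set ranged from 7.50 to 11.52 in early RNAs and from 7.72 to 11.34 in detached RNAs, against 9.13 to 11.59 in attached RNAs. Detached minus attached was 0.36 (SE 0.82), the sole positive value among the 18 probe sets. The 2 MOE430A probe sets, dim and untested, stood at -0.77 (SE 0.25) and -0.84 (SE 0.30) and followed each other (r = 0.58) but not the MOE430B one (r = 0.09 and -0.22). Without both RNAs that stand apart they stood at -0.54 (SE 0.23) and -0.75 (SE 0.35). Cxcl5, like Cxcl1 a Cxcr2 ligand, stayed below the array median on all 17 arrays, at 4.79 to 7.90. Its difference was -0.28 (SE 0.69), and 0.12 (SE 0.73) without both RNAs that stand apart.

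Ptgs2, the inducible cyclooxygenase, followed Csf1. Its brighter probe set read 7.74 and 7.86 in D4 late detached cells, 9.43, 9.85 and 9.22 in D4 late attached cells and 11.42, 10.05 and 10.56 in D4 early cells. The C2 RNAs read 5.60, 8.69 and 8.53 in late detached cells, 10.42, 10.45 and 10.05 in late attached cells and 10.76, 10.18 and 10.10 in early cells. All 5 detached RNAs lay below all 12 others, as for Csf1. In signal units, detached cells ranged from 32.6 to 398, attached cells from 578 to 1386 and early cells from 1042 to 2730. Detached minus attached was -2.20 (SE 0.46), detached minus early -2.81 (SE 0.46) and attached minus early -0.61 (SE 0.43).

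Within the lines, D4 attached cells lay below D4 early cells for Ptgs2, at -1.18 (SE 0.61) with ranges of 9.22 to 9.85 and 10.05 to 11.42 that did not meet. In C2 the same difference was -0.04 (SE 0.61), with overlapping RNAs. The difference between the lines was not tested. The second Ptgs2 probe set gave -1.52 (SE 0.60) for detached minus attached and followed the first (r = 0.83). Late minus early for Ptgs2 was -1.71 (SE 0.38) and stayed between -1.87 and -1.46 with each RNA left out in turn.

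Of the 11 tested probe sets, 5 had every detached RNA below every attached RNA (3 of Csf1, 1 of Ptgs2, 1 of Ccl2), where 0.863% of all tested probe sets did. Likewise 5 had every detached RNA below every early RNA (3 of Csf1, 2 of Ptgs2), where 2.12% of all did. Both counts describe the values that chose the genes. The Csf1 probe set at -2.48, in both counts, exceeded the array median on 4 arrays, all early. The second Ptgs2 probe set, in the second count, did so on 2 arrays, both early. They were thus tested only through the group where they are high. Without both RNAs that stand apart 10 of 11 detached minus attached differences were below 0, and after quantile normalization 9 of 11 were.

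**Figure D2:**
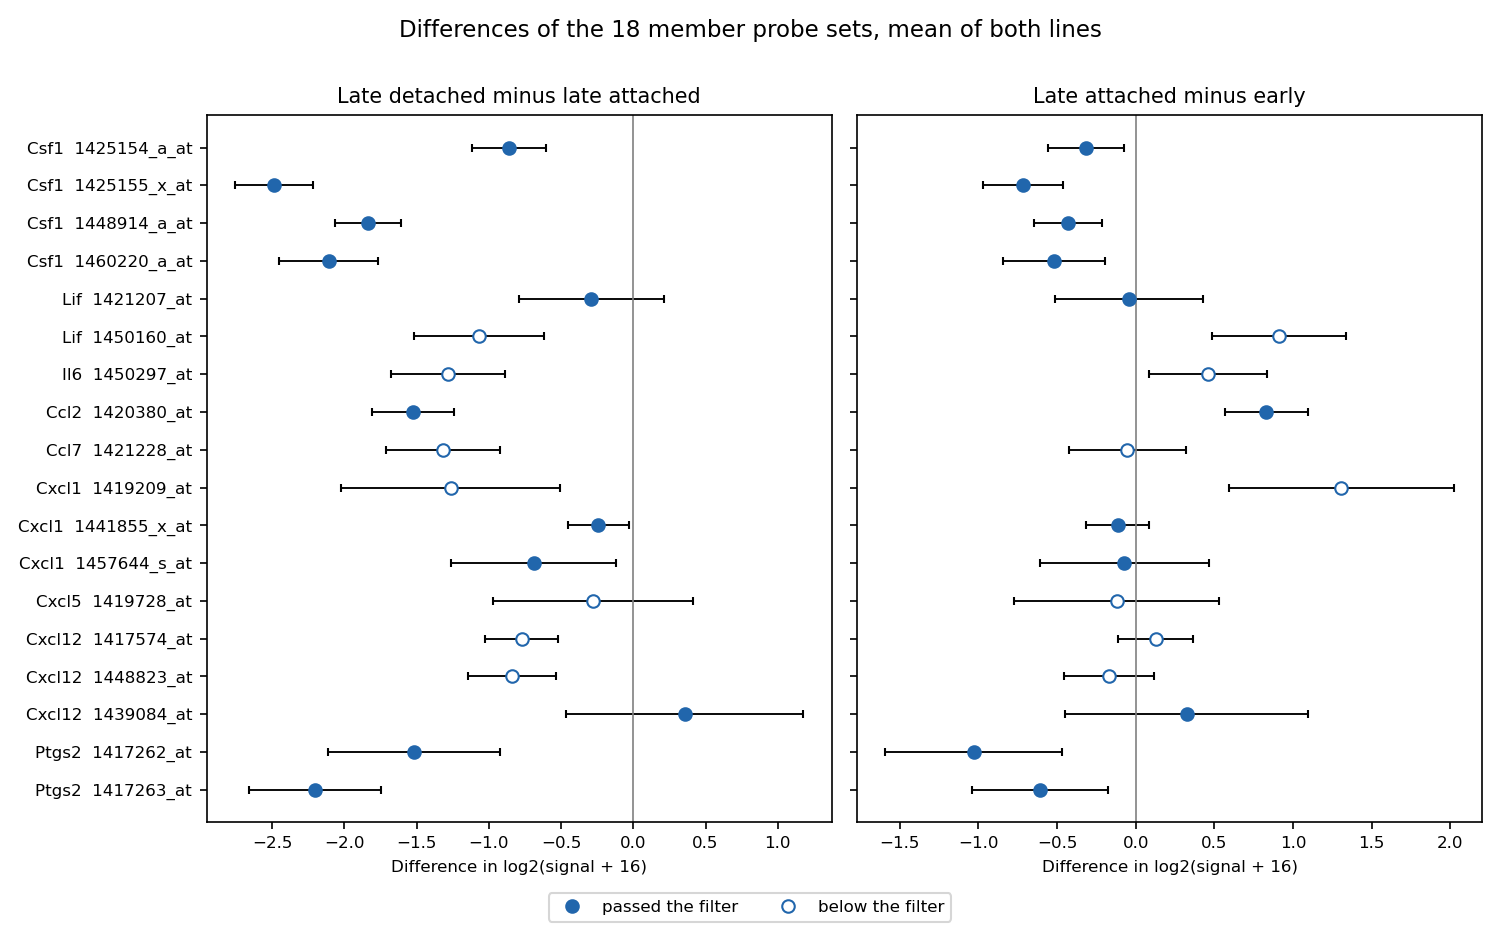
Differences in log2(signal + 16) of the 18 member probe sets, averaged over D4 and C2, for late detached minus late attached (left) and late attached minus early (right). Points are fitted differences, bars are standard errors, and open points are probe sets below the filter. In the left panel 17 of 18 points lie below 0, down to -2.48, and in the right panel the points fall on both sides of 0.

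The arrays were processed in several fluidics runs, inferred from station and time in the scanner headers. In 1 MOE430A run with detached and early D4 cells, Csf1 differed by -2.29 (n = 2 each) and Ptgs2 by -2.94. In another with detached and early C2 cells (n = 2 each), Csf1 differed by -2.94 and Ptgs2 by -1.86. The 1 detached C2 RNA that shared a run with the 3 attached C2 RNAs differed from them by -2.20 for Csf1 and by -4.70 for Ptgs2. For Ccl2 the same 1 RNA differed from the attached ones by -2.71, and detached minus early within runs was -0.05 in D4 and -0.50 in C2. Detached and attached D4 cells shared no run, nor did attached and early cells of either line, so for these contrasts run and state cannot be told apart. On MOE430B, every D4 early array and C2 early replicate 2 came from 1 chip lot, and all other arrays from another. For late against early D4 cells on that array type, which holds the Cxcl1 and Cxcl12 representatives, lot and state cannot be told apart.

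Between the lines, every representative probe set differed by less than 2 standard errors. For D4 minus C2 over the 3 states, the representatives lay between -0.50 (Cxcl5, SE 0.56) and 0.56 (Cxcl12, SE 0.66), with -0.10 (SE 0.27) for Csf1 and -0.09 (SE 0.37) for Ptgs2. The dim, untested MOE430A probe sets of Cxcl12 had the opposite sign, at -0.45 (SE 0.20) and -0.30 (SE 0.24). Without both RNAs that stand apart they were at -0.34 (SE 0.18) and -0.24 (SE 0.27). With limma, 0 of 30373 probe sets were called for D4 minus C2 (0% of all), with 1989 at an unadjusted p under 0.05. For the difference between lines in late minus early, 1 probe set was called (0.00329% of all), and it was no member.

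The markers of feeder fibroblasts moved with Csf1 and Ptgs2. Of 28 markers 27 were measured, none was at 0, and 4 (Pdgfrb, Lum, Fap and Twist1) exceeded the array median on no array. The mean log2 level of the 27 in D4 was 8.50 ± 0.20 in late detached cells (SD, n = 2), 9.71 ± 0.38 in late attached cells (n = 3) and 10.78 ± 0.32 in early cells (n = 3). In C2 it was 8.78 ± 0.33 in late detached, 10.11 ± 0.02 in late attached and 10.62 ± 0.35 in early cells (n = 3 each). Their summed signal was 12226 to 16153, 25785 to 51273 and 73205 to 196190 in the same order in D4, and 13229 to 22713, 44258 to 48618 and 55405 to 121760 in C2. Detached cells thus had the lowest feeder level and the lowest Csf1 and Ptgs2 in each line. No RNA of feeders alone was measured, and the part of feeder RNA in the members' differences was not tested.

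Among 22 feeder markers tested, 8 fell in detached against attached cells, where 0.269% of all 14105 tested genes fell, and none rose, where 0.0354% did. The median of the 22 was -1.45. Among the 8, the largest differences were those of Col1a1, a collagen chain, at -3.18 (SE 0.49, adjusted p = 0.0109), Tnc, the matrix protein tenascin-C, at -2.97 (SE 0.36, adjusted p = 0.00302), and Postn, the matrix protein periostin, at -2.01 (SE 0.35, adjusted p = 0.0172). A second Col1a1 probe set stood at -0.95 (adjusted p = 0.28). Without both RNAs that stand apart 3 of the feeder fibroblast markers were called, Col1a1 and Tnc among them, and Postn had an adjusted p of 0.0795. With each RNA left out in turn 2 to 10 were called: 2 without D4 late detached 1, 3 without D4 late attached 2 or 3, 4 without C2 late attached 2 and 5 without C2 late detached 1.

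In attached against early cells 3 fell, where 0.0993% of all genes fell and 0.0709% rose, with a median of -0.69. These were Col1a1 at -2.62 (adjusted p = 0.0462), Tagln, a smooth muscle actin-binding protein, at -2.55 (adjusted p = 0.0463) and Acta2, smooth muscle actin, at -2.12 (adjusted p = 0.0462). These calls did not hold: none of the feeder fibroblast markers was called without both RNAs that stand apart, where the 3 stood at -2.25 (adjusted p = 0.11), -2.60 (adjusted p = 0.16) and -2.25 (adjusted p = 0.13), nor in 13 of the 17 fits that leave out 1 RNA. A second Acta2 probe set stood at 0.50 (adjusted p = 0.84) and a second Col1a1 probe set at -1.67 (adjusted p = 0.096). In the same contrast Csf1 stood at -0.52 and Ccl2 at 0.83. Against early cells, late cells had 15 of the 22 lower, with a median of -1.56, where 1.48% of all genes fell and 0.617% rose. The count was 16 without both RNAs that stand apart.

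Markers of other cell types that make these cytokines did not pass the test. None of 6 tested macrophage genes and none of 6 tested endothelial genes was called in any of the 3 contrasts between states. Their mean log2 levels were 8.49 and 8.78 in D4 late detached cells, 8.41 and 8.71 in D4 late attached cells and 8.67 and 8.68 in D4 early cells. In C2 they were 8.39 and 8.60 in late detached, 8.96 and 9.16 in late attached and 8.61 and 8.91 in early cells, with C2 late attached replicate 1 the highest of all RNAs on both lists (9.53 and 9.47). Of 11 tested extraembryonic endoderm genes 4 rose in late against early cells, led by Cubn, an endocytic receptor, at 2.83 (SE 0.31, adjusted p = 0.000543), where 0.617% of all genes rose, and none passed between detached and attached cells. Of 12 ES cell markers, Sox2 rose in late against early cells, at 0.71 (SE 0.16, adjusted p = 0.0269), and none passed between detached and attached cells. The Sox2 call was lost without a filter. It was also lost without D4 late detached 3, D4 early 1 or C2 early 3.

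**Figure D3:**
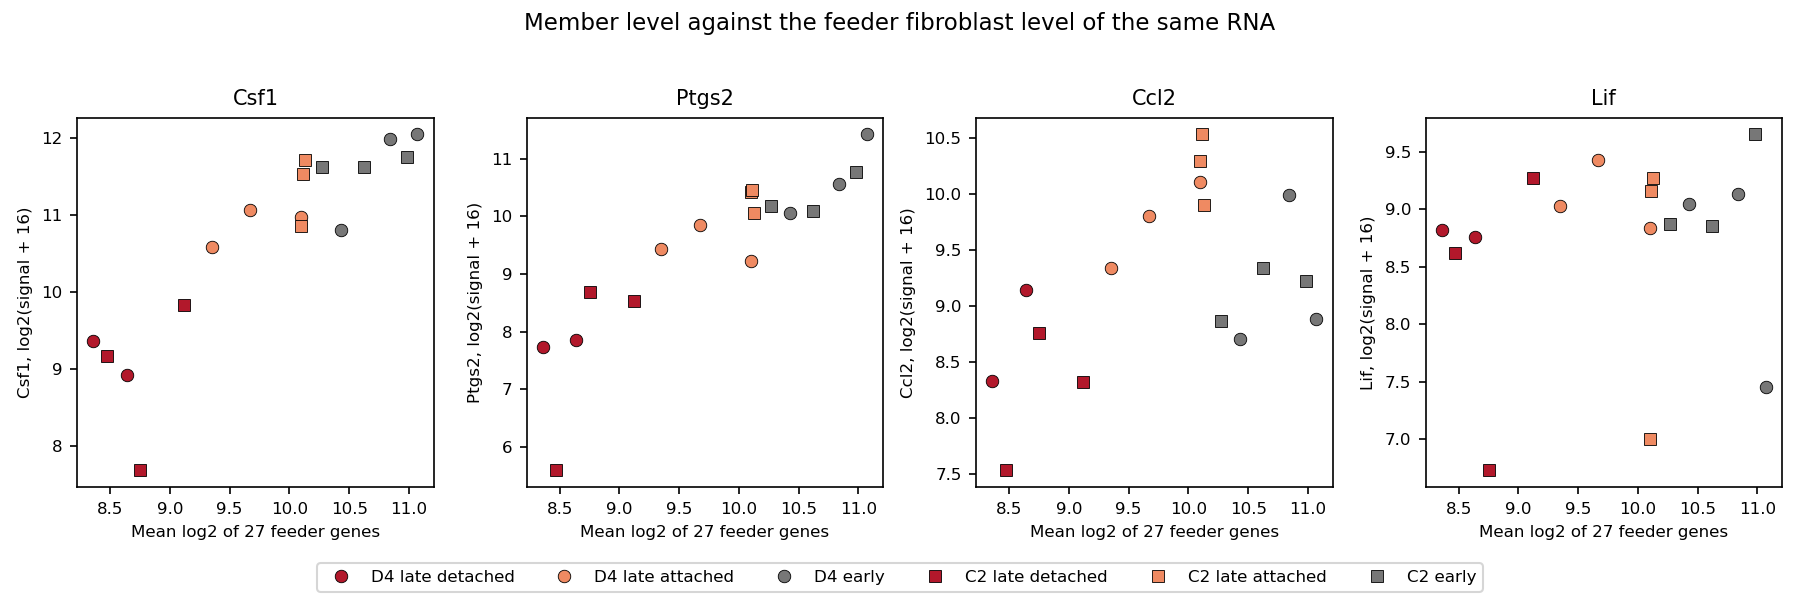
Level of Csf1, Ptgs2, Ccl2 and Lif, as log2(signal + 16), against the mean log2 level of 27 feeder fibroblast genes in the same RNA; each point is 1 of 17 RNAs, coloured by state and shaped by line. Csf1 and Ptgs2 are lowest in the detached RNAs, whose feeder level is 8.36 to 9.12, Ccl2 is on average highest in attached RNAs, whose feeder level is below that of the early RNAs, and Lif shows no such order.

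The genes that receive or relay these signals mostly did not pass the test. Of 22 receptor genes 12 were tested, and 1 fell, where 1.48% of all genes fell. Ptger4, the EP4 receptor of prostaglandin E2, was lower in late against early cells at -1.49 (SE 0.32, adjusted p = 0.0223). It averaged 6.37 ± 0.14 in D4 late detached cells (n = 2), 7.44 ± 1.05 in D4 late attached cells and 9.00 ± 0.34 in D4 early cells, and 8.54 ± 0.17, 7.95 ± 1.01 and 9.13 ± 0.64 in the same states of C2 (SD, n = 3 each). Its order in C2 thus differed from that of Ptgs2, with late detached cells above late attached cells. Ptger4 exceeded the array median on 2 arrays, both early, so it was tested only through the group where it is high. Its call was lost without a filter and after quantile normalization. It was also lost without D4 late detached 3, D4 early 1 or C2 early 3. In late against early cells Csf1r, the Csf1 receptor, was at -0.19 (SE 0.22). In that contrast Lifr, the Lif receptor, was at 0.44 (adjusted p = 0.24), and Il6st, which encodes gp130, at 0.22 (adjusted p = 0.36). Cxcr4, the Cxcl12 receptor, exceeded the array median on no array. No receptor gene passed between detached and attached cells or between attached and early cells.

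Of 13 genes of prostaglandin synthesis and turnover 8 were tested and 1 fell, where 1.48% of all genes fell. Ptgr1, a reductase that inactivates prostaglandins and leukotriene B4, was lower in late against early cells at -0.54 (SE 0.12, adjusted p = 0.0271). It averaged 11.97 ± 0.19 in D4 late detached cells (n = 2), 11.85 ± 0.15 in D4 late attached cells and 12.30 ± 0.04 in D4 early cells, and 11.56 ± 0.30, 11.48 ± 0.13 and 12.21 ± 0.29 in the same states of C2 (SD, n = 3 each). Detached minus attached was 0.10 for Ptgr1 (SE 0.15, adjusted p = 0.76). The Ptgr1 call in late against early cells was lost without a filter. It was also lost without D4 late detached 3, D4 early 1 or C2 early 1. Ptges, the prostaglandin E synthase downstream of Ptgs2, was at -0.22 (adjusted p = 0.59) in late against early cells. In detached against attached cells it was at -0.60 (SE 0.23, adjusted p = 0.25).

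Of 45 other cytokine and chemokine genes 16 were tested and none was called in any contrast between states. Their median was -0.12 for late minus early and -0.38 for detached minus attached, with 14 of 16 below 0 in the second, against medians of -0.03 and 0.01 over all tested probe sets. Cxcl16, a membrane-bound chemokine, was at -0.77 in late against early cells (adjusted p = 0.10) and Cxcl13, a B-cell chemokine, at -0.80 in detached against attached cells (adjusted p = 0.36). Of 28 NF-kappaB pathway genes and targets 20 were tested and none was called. Nfkbia, the inhibitor that NF-kappaB itself induces, was at -0.27 (adjusted p = 0.38) in late against early cells and -0.57 (adjusted p = 0.20) in detached against attached cells. The list's medians were -0.23 and -0.35.

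Of 16 STAT3 pathway genes downstream of gp130 cytokines, 14 were tested and 2 rose in late against early cells, where 0.617% of all genes rose, with a median of 0.12. Socs3, a STAT3 target that inhibits gp130 signalling, rose by 1.30 (SE 0.16, adjusted p = 0.000688), and its other 2 tested probe sets stood at 0.64 and 0.65. It averaged 13.05 ± 0.14 in D4 late detached cells (n = 2), 12.54 ± 0.40 in D4 late attached cells and 11.15 ± 0.47 in D4 early cells, and 12.69 ± 0.28, 12.52 ± 0.20 and 11.64 ± 0.16 in C2 (SD, n = 3 each). It also rose in attached against early cells, by 1.13 (adjusted p = 0.0361), a call lost without both RNAs that stand apart (1.19, adjusted p = 0.11). Gbx2, a homeobox gene known as a STAT3 target in ES cells, rose by 1.85 (SE 0.38, adjusted p = 0.0167), to 11.39 ± 0.04 and 10.15 ± 1.07 in D4 late detached and attached cells, against 8.40 ± 0.65 in D4 early cells, and to 11.05 ± 0.08 and 9.83 ± 0.16 in C2, against 9.11 ± 1.46 in C2 early cells. For late minus early, Lif in the same RNAs was at -0.19 (SE 0.42), and Stat3 itself at 0.21 (adjusted p = 0.41).

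**Figure D4:**
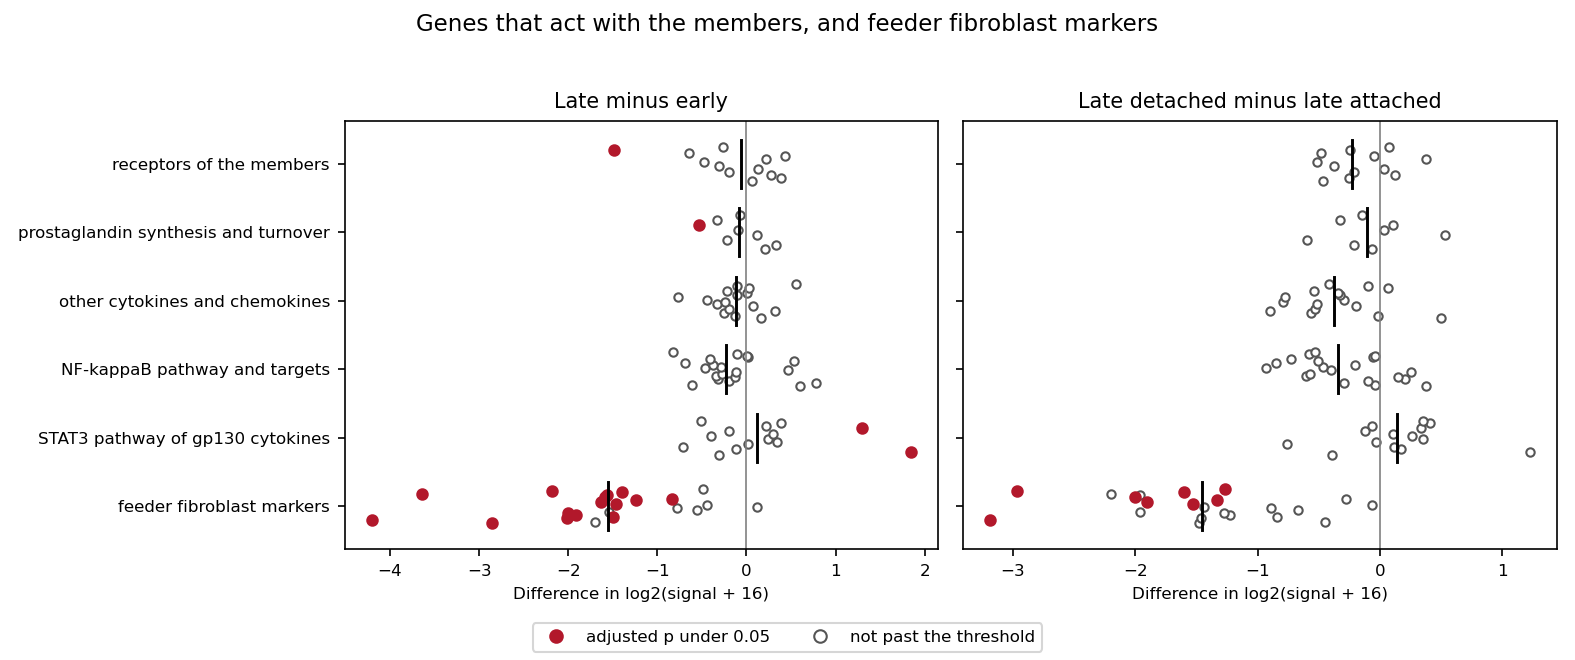
Differences in log2(signal + 16) of tested genes on 5 pathway lists and of feeder fibroblast markers, for late minus early (left) and late detached minus late attached (right); each point is 1 gene, red where adjusted p was under 0.05, and black bars are list medians. The 5 pathway lists hold 1, 1, 0, 0 and 2 called genes on the left and none on the right, with medians on the right down to -0.38, and the feeder markers centre at -1.56 and -1.45.

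Over the 17 RNAs, some members resembled each other. Of 36 pairs of representatives, Csf1 with Ccl7 (r = 0.86) and Csf1 with Ptgs2 (r = 0.79) were the most alike, followed by Il6 with Ccl2 (r = 0.70). Lif with Cxcl12 was the least alike (r = -0.26). The RNAs share their arrays, signal scale and feeder level, so these r describe these RNAs and carry no p.

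Among 14099 other genes, those most like the mean of the members' centred profiles were Tgfb1i1 (r = 0.90), Serpinf1 (0.89), Ltbp2 (0.88), Lox (0.88), Anxa2 (0.87), Chkb (0.87), Cd47 (0.86) and Arhgdib (0.86). Lox, a collagen cross-linking enzyme, is on the feeder list, and Tgfb1i1 is a focal adhesion protein, Serpinf1 a secreted serpin and Ltbp2 a matrix protein. Csf1 was most like Tnc (r = 0.95), which is also on the feeder list, and Ptgs2 most like Ltbp2 (r = 0.93). Ccl2 was most like Crabp1, a retinoic acid-binding protein (r = 0.86), and Ccl7 most like Emp1, a membrane protein (r = 0.86). Crabp1 shared the Ccl2 pattern, with 0.11 for late minus early and -1.52 for detached minus attached. For the flat or dim members the nearest genes were Rab27a for Il6 (0.90), Dnajc17 for Lif (0.84), Ptprv for Cxcl1 (0.87), Bin3 for Cxcl5 (0.87) and Gm11517 for Cxcl12 (0.77).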

How the data were processed

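Total RNA of 17 ES cell samples was measured on Affymetrix MOE430A and MOE430B arrays. The authors deposited 1 MAS5 signal intensity for each probe set and array (tool named in the submitters' processing notes). MAS5 scales each array separately, and its version and detection calls are not given in the sources used here. Intensities were analysed as log2(signal + 16), which understates differences of dim probe sets, so the number and brightness of arrays limit precision. Control probe sets were left out, and tests were run on probe sets brighter than the array median on 2 or more of the 17 arrays. Probe sets below that were fitted without the filter, for differences and standard errors only.

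Each array type was fitted with limma 3.58.1 in R 4.3.3, 1 coefficient per line and state, with Benjamini-Hochberg adjustment within an array type and a threshold of 0.05. The code was tested on simulated data. Late is the equal mean of detached and attached, and contrasts average both lines. Gene symbols came from the platform annotation, for probe sets with 1 symbol, updated by gene identifier through RefSeq (GRCm38.p6).

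The members and the lists were chosen with earlier results of these data known. A gene is represented by the tested probe set of highest mean, taken from MOE430A first. Up to 4 called genes per list are named for late minus early and up to 3 for detached minus attached, with the 8 genes most like the members' mean and 1 per member. Receptor, synthesis and pathway genes named without a call (Csf1r, Lifr, Il6st, Cxcr4, Ptges, Cxcl13, Cxcl16, Nfkbia, Stat3) were picked for their role or size after their values were seen. Alternatives were the added constant, the filter, quantile normalization, array weights, the replicate number as a block, fluidics run as a random block and leaving out each RNA.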

Additional observations from a re-analysis of the deposited data

How the results depend on the processing

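Directions of the members' called differences held under all alternatives run. Of 886 member values set against an alternative, 860 kept their call or moved by less than 1 SD, 20 lost a call, 6 moved by more and 0 changed sign where called. Of the 860, 599 came from fits that leave out 1 RNA and so share most of their data. The members were chosen on these values, so their calls and this count are a description and nothing is read from them. The called counts over all probe sets moved more. Late minus early gave 482 (136 higher, 346 lower), with 248 without a filter and 752 with array weights. Late attached minus early gave 28 (11 higher, 17 lower), with 15 without a filter (9 higher, 6 lower), 113 with the 75th percentile filter (38 higher, 75 lower), 18 after quantile normalization (9 higher, 9 lower), 47 with array weights (22 higher, 25 lower), 5 without both RNAs that stand apart (5 higher, 0 lower) and 3 without D4 late attached 3 (3 higher, 0 lower). With log2(signal + 1) it gave 22 (13 higher, 9 lower), so the balance of directions in this contrast depends on the setting. Late detached minus late attached gave 66 (6 higher, 60 lower), with 39 after quantile normalization, 418 with array weights and 35 without both RNAs that stand apart. The line by passage interaction gave 1, and 3 with the 75th percentile filter. Leaving out each RNA gave 194 to 623 for late minus early, 3 to 63 for attached minus early, 22 to 165 for detached minus attached, 0 to 2 for D4 minus C2 and 1 to 3 for the interaction. The lowest came without D4 early 1, D4 late attached 3 and D4 late detached 1, and the highest without C2 early 2, C2 early 2 and D4 late attached 1, for the first 3. The causes were not tested. The fit without both RNAs, the values within a fluidics run and the alternatives of list genes were chosen after seeing the data.

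With the replicate number as a block (replicate block), 431, 19 and 63 probe sets were called for the first 3 contrasts, and the members' calls did not change. The members' calls come from the values that chose them, so the losses below describe the fits and nothing is read from them. The Csf1 call in detached minus attached was lost without D4 late detached 1 or 3. The Ptgs2 call in late minus early was lost without D4 late detached 1 or 3, D4 early 1, or C2 early 1 or 3. The Ccl2 call in detached minus attached was lost without D4 late detached 1, D4 late attached 2 or 3, C2 late detached 1, or C2 late attached 1 or 2, without both RNAs that stand apart and after quantile normalization (-1.34). Same-numbered RNAs of different groups correlated from -0.22 to 0.18 in their deviations on MOE430A (40 pairs, median -0.01). RNAs of different number did so from -0.24 to 0.24 (80 pairs, median 0.01). These pairs pool both lines and all states, so they cannot decide whether same-numbered attached and detached RNAs shared a culture. Without a filter, the Ptgs2 call in late minus early and the Ccl2 call in detached minus attached were lost at the same differences. The Ptgs2 difference of late detached minus early in C2 was -1.86 within 1 fluidics run, against -2.74 over all RNAs. Dim probe sets limit what can be read of Il6, Ccl7, Cxcl5 and the MOE430A probe sets of Cxcl1 and Cxcl12.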

Other observations

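Among the members, Ccl2 and Ccl7 lie in a chemokine cluster on chromosome 11, and Cxcl1 and Cxcl5 in another on chromosome 5. Neighbours of these genes and of Lif and Ptgs2 were read from the same arrays (order from RefSeq, GRCm38.p6). Ccl2 and Ccl7 are followed on chromosome 11 by Ccl11, Ccl12 and Ccl8. Ccl8, a monocyte chemoattractant like Ccl2, exceeded the array median on 16 arrays and stood at -0.90 (SE 0.36, adjusted p = 0.27) in detached against attached cells and at 0.77 (SE 0.33, adjusted p = 0.39) in attached against early cells. Neither passed the limma test, where Ccl2 read -1.52 and 0.83 for the same differences. Ccl11 and Ccl12 exceeded the median on no array. On chromosome 5, Cxcl5 and Cxcl1 are separated by 4 genes, Ppbp, Pf4, Cxcl3 and Cxcl15, and Cxcl2 follows Cxcl1. Of these, Pf4, platelet factor 4, was tested, at 0.56 (SE 0.38, adjusted p = 0.46) in late against early cells. Osm, a gp130 cytokine whose gene lies beside Lif on chromosome 11, read 11.02 to 11.99 on MOE430B and differed by -0.11 (SE 0.19, adjusted p = 0.88) in late against early cells. Pla2g4a, the phospholipase gene beside Ptgs2 on chromosome 1, exceeded the median on 1 array.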
